A study of Mus musculus with 24 samples.

Results

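The D-type cyclins, the kinases they activate and the inhibitors that bind those complexes were examined in the hearts of control and cSirt5-/- mice, as 9 genes chosen by name among the 24239 in the normalized count table. They were Ccnd1, Ccnd2 and Ccnd3, which encode cyclins D1 to D3, Cdk4 and Cdk6, which encode their partner kinases, Cdkn1a, Cdkn1b and Cdkn1c, which encode the CIP/KIP inhibitors p21, p27 and p57, and Ccng1, which encodes cyclin G1. All 9 were present in the table, with a mean of 408.5 (Cdk6) to 26274 (Ccng1) normalized counts over the 24 hearts, and none was lost to the filter on low counts. The genes were chosen because Ccnd2 differed between genotypes in its response to transverse aortic constriction (TAC). The values of Ccnd2 in all comparisons, and those of all 9 genes for the difference between genotypes in the response, are therefore given as a description without a test.

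In a cell that enters the cycle, a D cyclin pairs with CDK4 or CDK6, and the active kinase phosphorylates the retinoblastoma protein, which then releases E2F transcription factors. The CIP/KIP proteins bind cyclin-kinase complexes, inhibit the later CDK2 complexes strongly, and can also help D cyclins assemble with their kinases. Cardiomyocytes of the adult heart rarely divide, and in the mouse cyclin D2 is known both for driving cardiomyocyte DNA synthesis when overexpressed and for its part in hypertrophic growth.

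The 4 groups were cSirt5-/- TAC, control TAC, cSirt5-/- Sham and control Sham, with 6 whole hearts from male mice in each. TAC narrows the aortic arch and loads the left ventricle with pressure, Sham is the same operation without the narrowing, and hearts were taken 12 weeks later. In cSirt5-/- mice (cSirt5KO in the labels) a recombinase driven by the Myh6 promoter removes Sirt5, which encodes a mitochondrial lysine deacylase, from cardiomyocytes only, so other cardiac cells keep the gene. Control mice came from the same Sirt5 line, which was on a C57BL6J background, and had no recombinase, so an effect of the recombinase itself and one of the deletion cannot be told apart. The age of the mice was not given in the sources used here. The labels do not say whether hearts of a group shared a litter or an operation day.

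Recovered depth was 22.5 to 35.8 M (mega) reads per library. Sirt5 was at 85.6 to 139 normalized counts in 9 of the 12 cSirt5-/- hearts and at 388 to 807 in the 12 control hearts. The libraries labelled cSirt5-/- TAC replicates 2 and 4 had 886 and 499 Sirt5 counts, in or above the control range, and cSirt5-/- Sham replicate 3 had 259. Ribosomal RNA and 7SK took 23.4% of reads in control TAC replicate 2 and 0.509 to 4.18% in the other libraries. By the share of antisense reads over 504 gene pairs the libraries fell into a set of 10 and a set of 14, called set 1 and set 2 here. Set 1 held 2 hearts of each group except cSirt5-/- Sham, of which it held 4. The numbers in the sample descriptions fell into 3 series, and the first series held 2 cSirt5-/- TAC, 4 control TAC and 4 control Sham hearts but no cSirt5-/- Sham heart.

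On the scale of normalized counts per kilobase of the canonical transcript, which allows genes to be compared, Ccng1 had by far the highest level, with a mean of 7481 over the 24 hearts. Ccnd3 followed with 819.8, Ccnd2 with 805 and Ccnd1 with 654, and these ranges overlapped, from 619 to 1227 for Ccnd3, from 499.7 to 1193 for Ccnd2 and from 401 to 895 for Ccnd1. Cdkn1a (547) and Cdk4 (468) came next. Cdkn1c (254) and Cdkn1b (243) lay close to each other, and Cdk6 was lowest, with 35.0 per kilobase. Transcript lengths were those of the GENCODE annotation and not of the isoforms expressed in these hearts.

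Ccnd2 (ENSMUSG00000000184, GRCm39 chr6:127102125-127129156, minus strand) was low in control Sham hearts and higher in the other 3 groups. It had 5708, 4239, 5837, 5082, 5761 and 4976 normalized counts in cSirt5-/- TAC hearts (replicates 1 to 6). Control TAC hearts had 6623, 5715, 5862, 5125, 7552 and 6099.9. In cSirt5-/- Sham hearts there were 4064, 4929, 4987, 6037, 7247 and 5381, and in control Sham hearts 3996, 3163, 3336, 3538, 3544 and 3516. All 18 hearts of the first 3 groups were above all 6 control Sham hearts, and those 3 groups overlapped each other. Of all genes, 2.46% had every control TAC heart above every control Sham heart. For cSirt5-/- Sham above control Sham hearts the share was 1.14%. The means were 5267 ± 623 in cSirt5-/- TAC, 6163 ± 838 in control TAC, 5441 ± 1094 in cSirt5-/- Sham and 3515 ± 279 in control Sham hearts (SD, n = 6 each).

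On the scale of log2(normalized count + 1), TAC against Sham differed by −0.03 (SE 0.11) in cSirt5-/- hearts and by 0.80 (SE 0.11) in control hearts, a difference between responses of −0.83 (SE 0.16). After Sham alone, cSirt5-/- hearts were 0.61 (SE 0.11) above control hearts, and after TAC the difference was −0.22 (SE 0.11). Of all genes, 0.0908% passed an adjusted p under 0.1 and a change above 1.5-fold for the difference between responses, 0.0536% in the upward and 0.0371% in the downward direction. The value for Ccnd2 chose these genes, so nothing is read from it. Without the libraries labelled cSirt5-/- TAC replicates 2 and 4 the difference between responses was −0.75. It was −0.82 in set 1 and −1.01 in set 2, each with fewer hearts. With the number series in the model it was −0.53, and the Sham difference was 0.39.

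All values are from whole hearts, where fewer cells of a type and less RNA per cell cannot be told apart. The 6 hypertrophy and fetal genes (Nppa, Nppb, Myh7, Acta1, Ankrd1 and Xirp2) were lowest in control Sham hearts by the median of their sum. Their summed level was 269661 to 612468 in cSirt5-/- TAC and 348588 to 832844 in control TAC hearts. It was 111699 to 340831 in cSirt5-/- Sham and 66821 to 195134 in control Sham hearts. The sum does not stand for each gene. Under the test, 2 of these 6 genes were higher after TAC in cSirt5-/- hearts, where DESeq2 called 4, and 6 of 6 in control hearts. All 6 fitted TAC differences were positive in each genotype, with a median of 1.165 in cSirt5-/- and 2.73 in control hearts. In cSirt5-/- against control hearts after Sham 3 of 6 were higher, with 4 fitted differences positive and 2 negative. After TAC 1 of 6, Xirp2, was lower in cSirt5-/- than in control hearts, and all 6 fitted differences were negative, with a median of −0.67. The part of these differences in the Ccnd2 values was not tested.

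**Figure D1:**
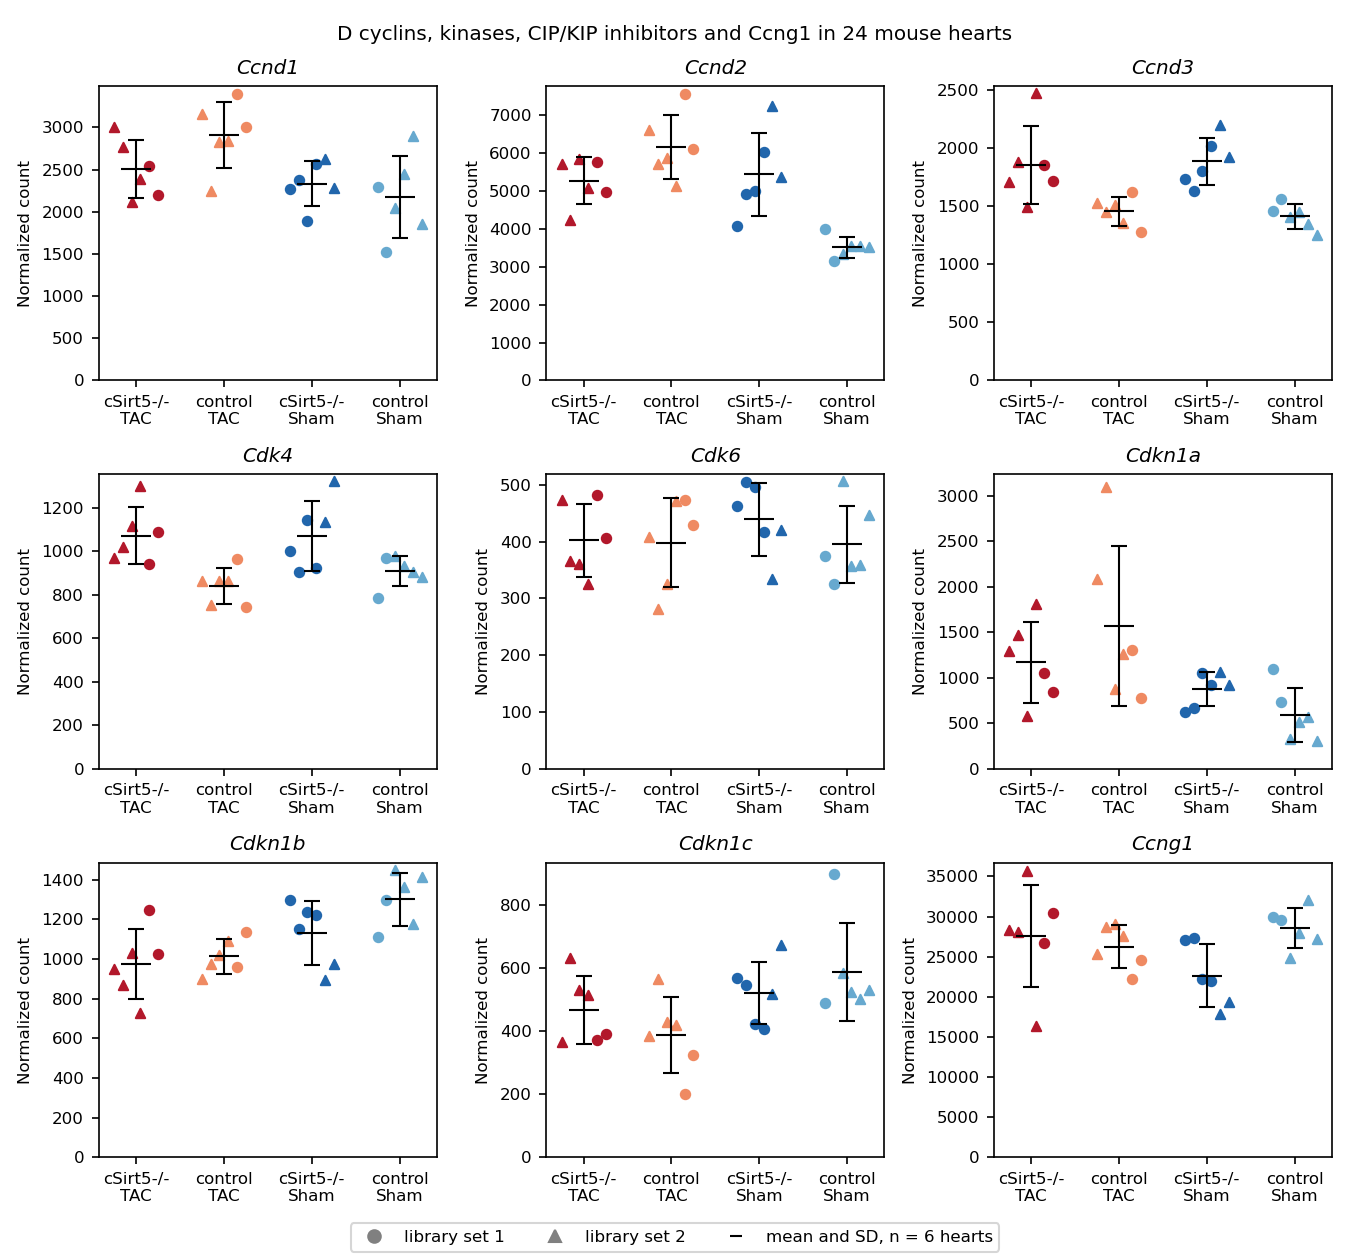
Normalized counts (y axis, from 0) of the 9 genes in each of the 24 hearts by group (x axis); points are hearts, circles library set 1 and triangles set 2, and bars the mean and SD of 6 hearts. Ccnd2 in the 6 control Sham hearts sits between 3163 and 3996, below all 18 other hearts, and Cdkn1a spreads from 783 to 3098 in control TAC hearts.

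The other D cyclins, Ccnd1 and Ccnd3, also had their lowest mean in control Sham hearts, but those hearts overlapped the control TAC hearts. Ccnd1 (ENSMUSG00000070348, chr7:144483668-144493662, minus strand) had 3009.9, 2771, 2112, 2385, 2543 and 2194 counts in cSirt5-/- TAC, against 2267, 2379, 1885, 2572, 2622 and 2278 in cSirt5-/- Sham hearts. In control mice it had 3158, 2244, 2830.3, 2839, 3398 and 3002 after TAC, against 2295, 1521, 2043, 2443, 2897 and 1854 after Sham. Only 3 of the 6 control TAC hearts were above the highest control Sham heart. The log2 fold change of TAC in control hearts was 0.44 (SE 0.12; limma adjusted p = 0.020), which is under the 1.5-fold limit. In cSirt5-/- hearts it was 0.10 (SE 0.12; limma adjusted p = 0.805). Within set 1 the control value was 0.77 (adjusted p = 0.082) and within set 2 it was 0.27 (adjusted p = 0.379).

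Ccnd3 (ENSMUSG00000034165, chr17:47815976-47910616, plus strand) had higher values in cSirt5-/- than in control hearts after both operations, by less than 1.5-fold. It had 1712, 1883, 1493, 2477, 1861 and 1719 counts in cSirt5-/- TAC hearts, against 1532, 1449, 1512, 1359, 1621 and 1280.5 in control TAC hearts. After Sham it had 1739, 1630.3, 1807, 2025, 2200.0 and 1925 in cSirt5-/- hearts, against 1462, 1562, 1411, 1451, 1345 and 1249.7 in control hearts. Every cSirt5-/- Sham heart was above every control Sham heart, and 5 of 6 cSirt5-/- TAC hearts were above every control TAC heart. Groups without overlap after Sham were found for 2.45% of all genes. The log2 fold change was 0.33 (SE 0.10; limma adjusted p = 0.038) after TAC and 0.41 (SE 0.10; limma adjusted p = 0.029) after Sham, 1.33-fold in the Sham hearts, so neither passed the fold limit. Without the libraries labelled cSirt5-/- TAC replicates 2 and 4, which were the 2 highest of their group, the TAC value was 0.22 (limma adjusted p = 0.247). With the number series in the model the Sham value was 0.33 (limma adjusted p = 0.453). For TAC against Sham, Ccnd3 gave −0.03 (95% CI −0.23 to 0.16) in cSirt5-/- hearts and 0.04 (95% CI −0.15 to 0.24) in control hearts. Bysl lies on the opposite strand of part of Ccnd3, LTO1 of Ccnd1 and Tspan31 of Cdk4, and the sources used here do not say whether reads were counted by strand.

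The make-up of the D cyclin pool per kilobase shows these patterns together. Ccnd2 made up 34.6 ± 4.6% of the pool in cSirt5-/- TAC, 39.4 ± 1.9% in control TAC, 35.4 ± 2.8% in cSirt5-/- Sham and 30.4 ± 2.0% in control Sham hearts (SD, n = 6 each). Ccnd3 made up 38.0 ± 4.8%, 29.5 ± 2.2%, 38.9 ± 1.9% and 38.5 ± 4.3% in the same order of groups. The summed level was 2412 ± 183 per kilobase in cSirt5-/- TAC and 2464 ± 260 in control TAC hearts, and 2410 ± 317 in cSirt5-/- Sham hearts, with 1829 ± 146 in control Sham hearts. Control TAC hearts held, on average, the highest Ccnd2 and the lowest Ccnd3 share, and control Sham hearts the smallest pool. The pool and all its shares include Ccnd2, whose response chose the genes, so nothing is read from them. Per kilobase, Ccnd3 itself was at 723 ± 61 in control TAC and 700 ± 53 in control Sham hearts (SD, n = 6 each).

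**Figure D2:**
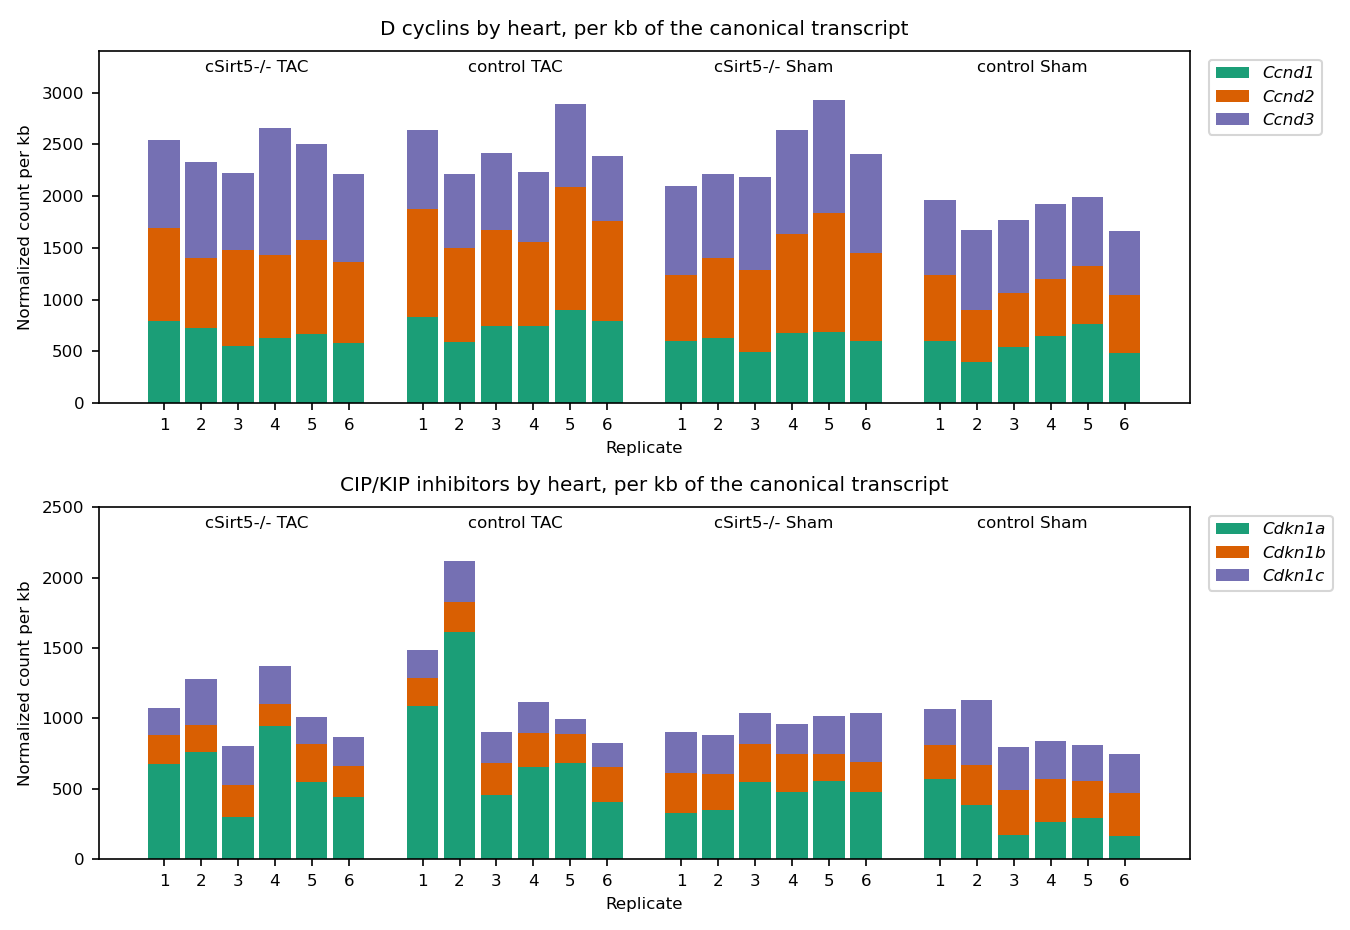
Stacked bars give the normalized count per kilobase of canonical transcript (y axis, from 0) of the 3 D cyclins (top) and the 3 CIP/KIP inhibitors (bottom) in each heart, by group and replicate (x axis). The D cyclin pool averages 2410 to 2464 in the other 3 groups and 1829 in control Sham hearts. Cdkn1a takes the largest part of the inhibitor pool in every TAC heart, every cSirt5-/- Sham heart and some control Sham hearts.

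Cdk4 and Cdk6 provide the catalytic subunits, and more than 90% of their summed level per kilobase was Cdk4 in every heart. Cdk4 (ENSMUSG00000006728, chr10:126899403-126903789, plus strand) had 970.3, 1019.5, 1115, 1303, 942 and 1089 counts in cSirt5-/- TAC hearts, against 863, 752, 865, 865, 967 and 744 in control TAC hearts. After Sham, there were 1001, 904.8, 1144, 923, 1136 and 1326 counts in cSirt5-/- hearts, against 788, 969, 981, 934, 908 and 884 in control hearts. Of the cSirt5-/- hearts, 5 of 6 after TAC and 4 of 6 after Sham were above every control heart of the same operation. The log2 fold change was 0.35 (SE 0.10; limma adjusted p = 0.032) after TAC, under the fold limit, and 0.23 (SE 0.10; limma adjusted p = 0.235) after Sham. Without the libraries labelled cSirt5-/- TAC replicates 2 and 4 the TAC value was 0.29 (limma adjusted p = 0.162).

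The promoter of Cdk4 is shown because it is a textbook target of Myc, which binds the E-box CACGTG and is among the pathway genes given further on. RefSeq promoters (GRCm38.p6, 250 bases before to 50 after the start, a different build from the gene coordinates above) were at hand for 6 of the 9 genes. In the plus strand sequence of chr10:127063285-127063584, capitals mark the E-boxes, which read the same on both strands.
Cdk4 promoter: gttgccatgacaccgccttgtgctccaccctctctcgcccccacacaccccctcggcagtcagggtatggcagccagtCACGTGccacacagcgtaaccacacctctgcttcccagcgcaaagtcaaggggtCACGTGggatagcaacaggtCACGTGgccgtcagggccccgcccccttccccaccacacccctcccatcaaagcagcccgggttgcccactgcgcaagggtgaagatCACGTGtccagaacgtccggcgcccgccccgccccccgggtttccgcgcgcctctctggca
The 4 matches lie 172, 118, 98 and 11 bases before the start. An E-box was found in 7.15% of 32851 promoters of this length, and 4 or more in 8 of them (0.0244%). The cut of 4 was set by the count in Cdk4 itself. Cdk6 had 1 match and the other 4 genes had none. A match is a string of letters and not a measured binding site.

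Cdk6 (ENSMUSG00000040274, chr5:3391485-3581008, plus strand) ranged over much the same values in all groups, with 325 to 483 counts in cSirt5-/- TAC, 281 to 473 in control TAC, 333 to 505 in cSirt5-/- Sham and 326 to 507 in control Sham hearts. Its log2 fold changes lay between −0.13 and 0.15 in the 4 comparisons, each with an SE of 0.14, and no limma adjusted p was below 0.615. The 95% intervals reached from −0.41 to 0.44, so changes of that size were not excluded for Cdk6.

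Cdkn1a (ENSMUSG00000023067, chr17:29309950-29319701, plus strand), whose product p21 stops the cycle in response to stress, was the most variable of the genes. It had 1292, 1468, 577, 1815, 1050.0 and 845 counts in cSirt5-/- TAC hearts, against 625, 669.6, 1051, 918, 1062 and 919 in cSirt5-/- Sham hearts. In control mice there were 2090.0, 3098, 876, 1261, 1308 and 783 counts after TAC, against 1094, 735, 333, 512, 566 and 309 after Sham. In control mice 4 of 6 TAC hearts were above the highest Sham heart, and the highest of all was control TAC replicate 2, the library with 23.4% ribosomal RNA and 7SK. Its coefficient of variation within a group was 37.9% in cSirt5-/- TAC, 56.1% in control TAC, 21.4% in cSirt5-/- Sham and 49.3% in control Sham hearts.

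Cdkn1a rose after TAC in control hearts by 1.37 on the log2 scale (SE 0.30, 2.59-fold; limma adjusted p = 0.0030). In cSirt5-/- hearts the value was 0.36 (95% CI −0.26 to 0.98; limma adjusted p = 0.686). The difference between the 2 responses was −1.01 (SE 0.43), given as a description. Against control, cSirt5-/- hearts differed by −0.34 (SE 0.30; limma adjusted p = 0.596) after TAC and by 0.67 (SE 0.30; limma adjusted p = 0.268) after Sham. The rise in control hearts was not the same in the library sets: within set 2 it was 1.97 (limma adjusted p = 0.017), and within set 1, with 2 hearts a group, 0.17 (limma adjusted p = 0.844). Leaving out any single heart gave 1.14 to 1.58, always past the test.

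One of the Cdkn1a promoters is shown because Cdkn1a is the classical target of p53 and the p53 targets are counted further on. Of 2 annotated starts, 2790 bases apart, the sequence is that of the upstream start, plus strand of chr17:29090729-29091028 (GRCm38.p6), and capitals mark the pattern CATGNNNNNNCATG, the core of a p53 half-site pair, searched on both strands.
Cdkn1a upstream promoter: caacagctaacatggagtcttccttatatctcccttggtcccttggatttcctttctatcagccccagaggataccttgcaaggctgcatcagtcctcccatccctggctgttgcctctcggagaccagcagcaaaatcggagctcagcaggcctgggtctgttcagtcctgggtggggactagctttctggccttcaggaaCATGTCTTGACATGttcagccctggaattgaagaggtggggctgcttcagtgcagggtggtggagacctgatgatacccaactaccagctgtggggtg
The match lies 48 bases before the start. The pattern was found in 0.712% of the 32851 promoters and in no other promoter of the 6 genes.

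Cdkn1b (ENSMUSG00000003031, chr6:134897364-134902476, plus strand), which encodes p27, the inhibitor that marks resting cells, was lower after TAC in control mice. It had 900.4, 973, 1022, 1093, 958 and 1137 counts in control TAC hearts, against 1113, 1296, 1449.5, 1361, 1177 and 1416 in control Sham hearts, and 5 of the 6 TAC hearts were below the lowest Sham heart. The log2 fold change of −0.36 (SE 0.11; limma adjusted p = 0.033) was under the fold limit. Leaving out any single heart gave −0.40 to −0.33 (limma adjusted p 0.014 to 0.090). The other alternatives gave −0.44 to −0.20, and not all of these had an adjusted p under 0.1. The control means after TAC and Sham were 1047 and 1204 in set 1 (n = 2 each), and 997 and 1351 in set 2 (n = 4 each). In cSirt5-/- mice there were 948, 869, 1031, 726, 1246 and 1027 counts after TAC, against 1298, 1153, 1239, 1225, 894 and 975 after Sham, and the value was −0.22 (SE 0.11; limma adjusted p = 0.441).

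Cdkn1c (ENSMUSG00000037664, chr7:143012076-143014787, minus strand), an imprinted gene that encodes p57, fell after TAC in control hearts by 0.63 on the log2 scale (SE 0.19; limma adjusted p = 0.030). It had 385, 566, 428, 419, 199.6 and 324 counts in control TAC hearts, against 488, 898, 583, 523, 503 and 529 in control Sham hearts. The lowest value was control TAC replicate 5 and the highest control Sham replicate 2, and the call did not hold without the first (−0.46, limma adjusted p = 0.108) or the second (−0.51, limma adjusted p = 0.103). Nor did it hold within set 2 (−0.26, limma adjusted p = 0.424) or with the number series in the model (−0.48, limma adjusted p = 0.134), while set 1 gave −1.38 (limma adjusted p = 0.060) with 2 hearts a group. In cSirt5-/- mice there were 367, 633, 528, 515, 372 and 391.9 counts after TAC, against 567, 545, 421, 406, 516 and 672 after Sham, with a difference of −0.16 (SE 0.19; limma adjusted p = 0.779).

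The make-up of the CIP/KIP pool varied with these genes. Per kilobase, Cdkn1a made up 55.5 ± 10.95% of it in cSirt5-/- TAC, 62.8 ± 11.5% in control TAC, 46.4 ± 7.4% in cSirt5-/- Sham and 33.1 ± 11.7% in control Sham hearts (SD, n = 6 each). In control Sham hearts the 3 genes had nearly equal shares, with 32.9% for Cdkn1b and 34.0% for Cdkn1c.

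Ccng1 (ENSMUSG00000020326, chr11:40639379-40646138, minus strand) encodes cyclin G1, a target of p53 that recruits a phosphatase to Mdm2 and does not activate CDK4 or CDK6. It had 28332, 28082, 35735, 16338, 26765 and 30424 counts in cSirt5-/- TAC hearts, against 27124, 27320.0, 22211, 21985, 17893 and 19378 in cSirt5-/- Sham hearts. Control hearts had 25289, 28650.5, 29032, 27633, 22161 and 24607 counts after TAC, against 29927, 29602, 24856, 28007, 32089 and 27146 after Sham. The lowest heart of all was the library labelled cSirt5-/- TAC replicate 4, with 499 Sirt5 counts and 24.9% mitochondrial reads. It also had the highest Ccnd3, Cdk4 and Cdkn1a of its group. The part of these library features in the values was not tested. No comparison of Ccng1 passed the test. The values furthest from 0 were −0.35 (95% CI −0.63 to −0.06; limma adjusted p = 0.201) for cSirt5-/- against control after Sham and 0.27 (95% CI −0.02 to 0.55; limma adjusted p = 0.471) for TAC in cSirt5-/- hearts.

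Leaving Ccnd2 aside, 2 of the 8 genes passed the test for TAC in control hearts, where 7.03% of all genes did, 3.78% higher and 3.26% lower. None of the 8 passed for TAC in cSirt5-/- hearts (0.672% of all genes, 0.252% higher and 0.421% lower), for cSirt5-/- against control after TAC (3.25%, with 1.93% higher and 1.32% lower) or for cSirt5-/- against control after Sham (2.03%). limma gave 0, 2 and 4 of the 8 an unadjusted p under 0.05 in these 3 comparisons. Of all 24239 genes, 2772, 4863 and 3897 had such a p in the same order. edgeR and DESeq2 also called 0 of the 8 in each. With so few genes called in cSirt5-/- hearts over the whole table, a count of 0 among 8 is near the background. The median log2 fold change of the 8 was −0.06 for TAC in control hearts, against 0.01 over all genes.

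**Figure D3:**
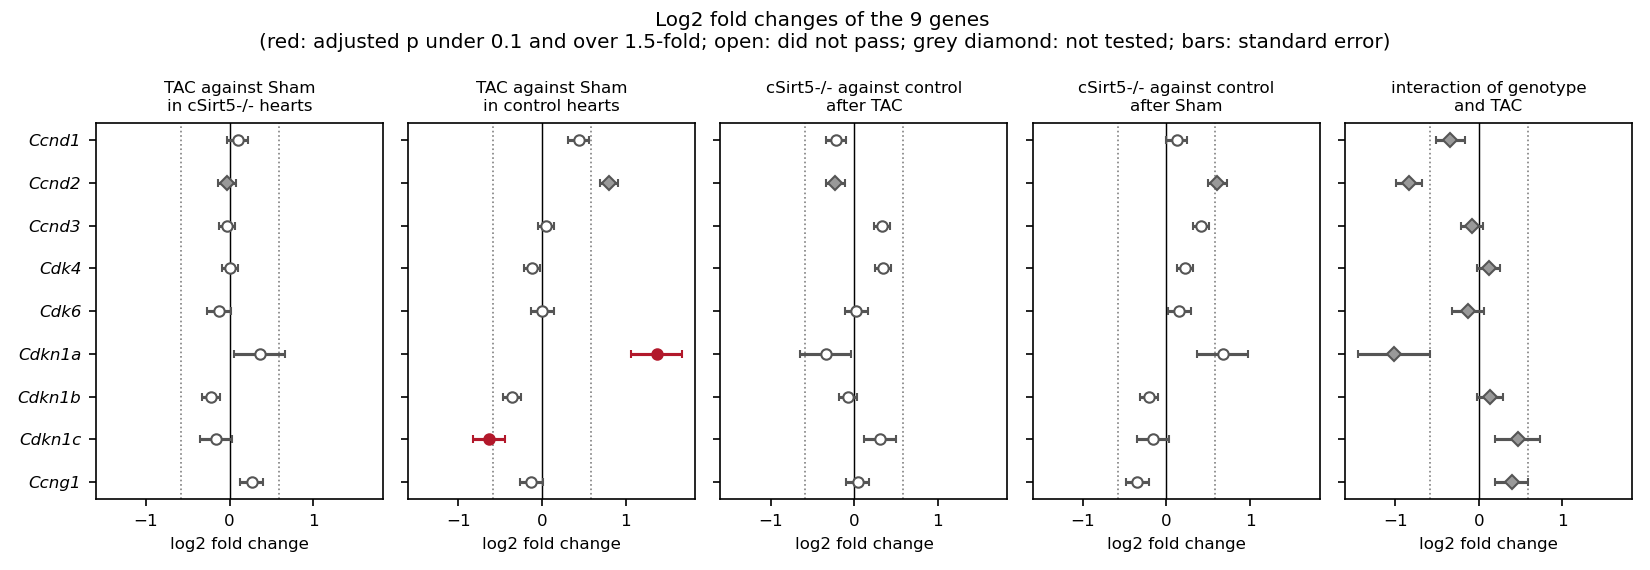
Log2 fold changes (x axis) of the 9 genes (rows) in the 4 comparisons and for the difference between genotypes in the TAC response, with bars of 1 SE; red passed the test, open circles did not, grey diamonds were not tested, and dotted lines mark 1.5-fold. Ccnd2 lies at 0.80 for TAC in control hearts and at −0.03 in cSirt5-/- hearts, and Cdkn1a and Cdkn1c passed the test in control hearts at 1.37 and −0.63.

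The other genes of the pathway, 94 in 6 lists chosen by role, moved in small numbers. For TAC in control hearts 6 rose and 1 fell, 7.45% of the 94 beside 7.03% of all genes, a share near the background. Among 22 genes of p53 and its targets 4 rose, Pmaip1 (1.22, limma adjusted p = 0.093), which promotes apoptosis, Ddit4 (0.99, adjusted p = 0.035), an inhibitor of mTORC1, Phlda3 (0.95, adjusted p = 0.0036), an inhibitor of Akt, and Eda2r (0.64, adjusted p = 0.040), a TNF receptor family member. edgeR called 3 of these 4 and not Pmaip1 (edgeR adjusted p = 0.155). Myc rose by 1.05 (limma adjusted p = 0.0098) as the 1 gene of 20 that control D cyclins or CIP/KIP proteins. Of 16 replication and mitosis genes Tyms, which makes thymidylate, rose by 0.69 (limma adjusted p = 0.054) and Cenpf, a kinetochore protein gene, fell by 2.56 (limma adjusted p = 5.84e-06). None of the 18 Rb and E2F genes, the 5 INK4 and other inhibitors or the 13 later cyclins and kinases passed the test in this comparison. The count depends on single hearts, with 4 genes called without control TAC replicate 5 or control Sham replicate 2 and 11 without control Sham replicate 1.

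Cenpf had 231 to 900.3 counts in cSirt5-/- TAC, 108 to 227 in control TAC, 603 to 1345 in cSirt5-/- Sham and 371 to 1485 in control Sham hearts. The control TAC hearts were below all other hearts, by a narrow margin to the cSirt5-/- TAC hearts (227 against 231). Of all genes, 2.79% had every control TAC heart below every control Sham heart. For TAC in cSirt5-/- hearts Cenpf fell by 1.16 (limma adjusted p = 0.090) and Cdkn2b, which encodes the CDK4 and CDK6 inhibitor p15, rose by 1.63 (limma adjusted p = 0.093). Both calls were close to the limit and edgeR called neither. Cdkn2b was low, with 26.6 ± 6.6 counts in cSirt5-/- TAC hearts and 9.95 ± 6.68 in cSirt5-/- Sham hearts (SD, n = 6 each). Control hearts had 28.5 ± 9.3 counts after TAC and 13.9 ± 9.8 after Sham (SD, n = 6 each), a log2 fold change of 1.11. That value did not pass in limma (limma adjusted p = 0.126), while DESeq2 called it (DESeq2 adjusted p = 0.055). After TAC, cSirt5-/- hearts had more Cenpf than control hearts (1.67, limma adjusted p = 0.0031) and no other of the 94 genes passed. The share of the 94 called was 2.13% for TAC in cSirt5-/- hearts, beside 0.672% of all genes, and 1.06% for cSirt5-/- against control after TAC, beside 3.25%.

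After Sham, cSirt5-/- hearts had more RNA of 5 of the 94 genes than control hearts and less of 0, where 1.48% of all genes were higher and 0.549% lower. They were E2f1 (1.19, limma adjusted p = 0.029), the transcription factor that the retinoblastoma protein restrains, Ddit4 (1.07, adjusted p = 0.069), Myc (1.03, adjusted p = 0.050), Phlda3 (0.94, adjusted p = 0.028) and Mcm5 (0.60, adjusted p = 0.083), a subunit of the replicative helicase. E2f1 was at 65.9 ± 26.9 counts in cSirt5-/- Sham and 27.0 ± 7.6 in control Sham hearts, and Phlda3 at 563 ± 95 and 299.7 ± 93.2 in the same order (SD, n = 6 each). Phlda3, Ddit4 and Myc were thus called both here and for TAC in control hearts, comparisons that share the control Sham hearts. Within set 1, and with the number series in the model, 0 of the 5 were called, where 0 and 26 of all genes were.

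**Figure D4:**
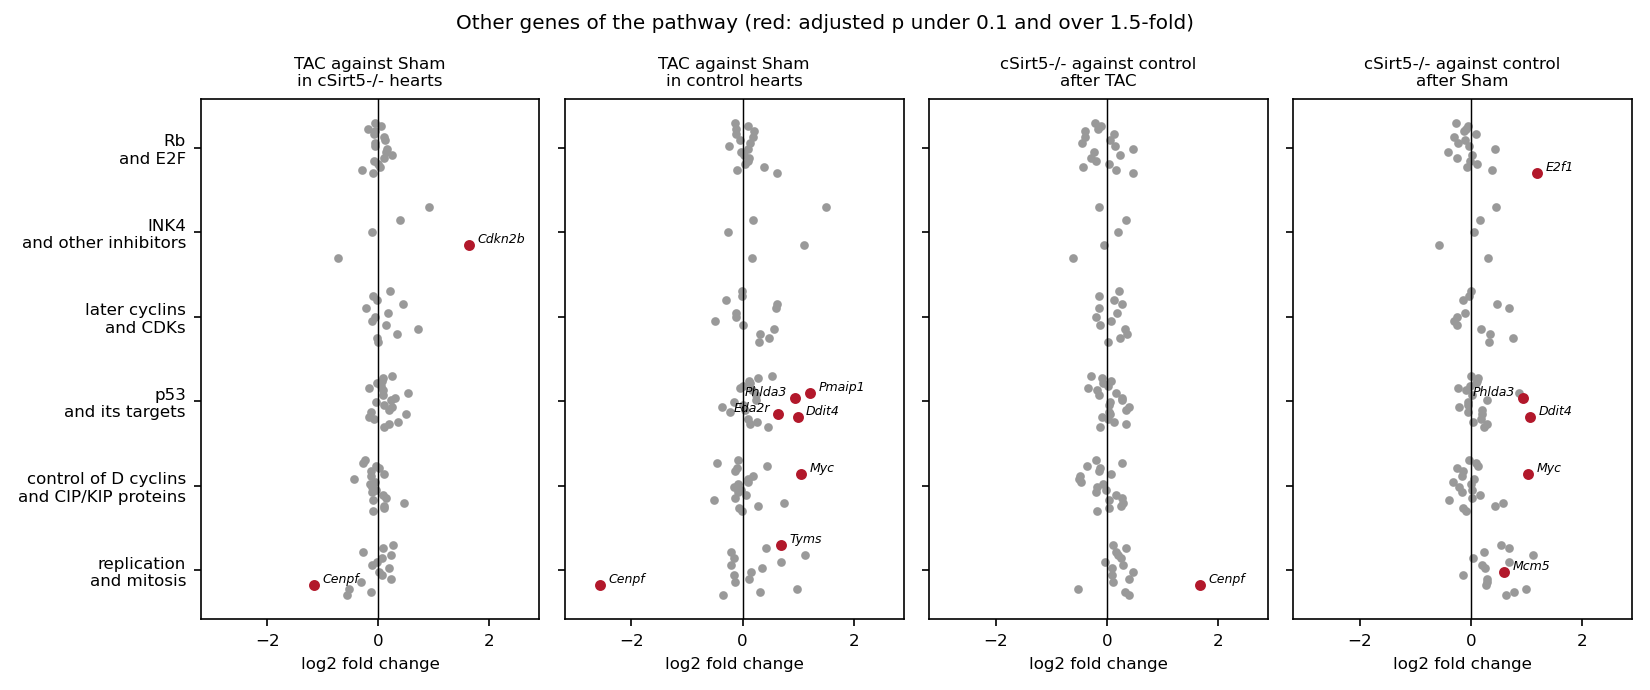
Log2 fold changes (x axis) of the 94 other pathway genes in 6 lists (rows) for the 4 comparisons; each point is a gene, and red named points passed the test. For TAC in control hearts 6 genes rose and Cenpf fell by 2.56, and for cSirt5-/- against control after Sham 5 genes were higher.

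Over the 24 hearts, after centring each library set, the genes most like Ccnd2 among 10925 with a mean of at least 100 counts were Ccn2 (r = 0.88), a matricellular growth factor, Ehd4 (0.88), a membrane trafficking protein, Pcolce2 (0.87), an enhancer of procollagen processing, Arfgap3 (0.87), a regulator of Golgi traffic, and Ankrd1 (0.86), a stretch-responsive muscle protein. Among the 9 genes themselves, Ccnd3 and Cdk4 went together (r = 0.74), and Cdkn1a went against Cdkn1b (r = −0.78), Ccnd1 against Cdkn1c (r = −0.77) and Ccnd3 against Ccng1 (r = −0.69). Centred on the group means in place of the sets, these were 0.46, −0.61, −0.52 and −0.78. The hearts share groups, sets and depth, so these correlations are descriptions over 24 points that are not independent. The genes like Ccnd2 were the highest of 10925 by its own values, which include the response that chose the 9 genes. Their correlations centred on the group means were not computed.

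Markers of other cells moved with some of these comparisons. The 7 fibroblast genes summed to 49206 to 92378 counts in cSirt5-/- TAC, 31822 to 116709 in control TAC, 30249.9 to 71388 in cSirt5-/- Sham and 28493 to 48933 in control Sham hearts, and 3 of 7 were higher after TAC in control hearts. The 8 macrophage genes summed to 7821 to 13683, 5008 to 10393, 6435 to 11144 and 4365 to 7039 in the same order of groups. In cSirt5-/- against control hearts 2 of 8 were higher after TAC, where edgeR and DESeq2 each called 1, and 4 of 8 after Sham. Of all genes, 1.93% and 1.48% were higher in these 2 comparisons. Of 7 endothelial genes, 1 was lower in each of these 2 comparisons, where 1.32% and 0.549% of all genes were. After TAC edgeR and DESeq2 called 0 of the 7. All 7 fitted differences were negative in both comparisons. The endothelial sums did not overlap after Sham, with 19256 to 22668 in cSirt5-/- and 23012 to 29155 in control hearts. The 4 atrial genes summed to 33555 to 103303, 20199 to 136265, 8428 to 52035 and 1605 to 18439, and Myl7 and Sln were at 0 in some hearts. Nppa, 1 of these 4, is also among the hypertrophy and fetal genes. The sums do not stand for each gene. For TAC against Sham 3 of the 4 fitted differences were negative in each genotype. Their median was −3.28 in cSirt5-/- hearts and −0.86 in control hearts. The 8 ventricular cardiomyocyte genes were at high levels in all hearts, and 1 of 8 was lower after TAC in control hearts. The defining T cell genes Cd3d, Cd3e, Cd3g and Cd8a were at 0 in some hearts, but the summed T cell level did not overlap after Sham, with 47.3 to 89.9 counts in cSirt5-/- and 23.7 to 45.9 in control hearts. In that comparison 1 of 5 T cell and 1 of 4 atrial genes were higher in cSirt5-/- hearts. So were 1 of 4 adipocyte and 1 of 4 mesothelial and epicardial genes. DESeq2 called 0 of the T cell genes and 2, 2 and 1 of the other lists in that order. The part of these cells in the values of the 9 genes and of the pathway genes was not tested.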

How the data were processed

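RNA from 24 whole hearts was made into directional libraries and sequenced; the authors trimmed reads with Trim Galore and aligned them with STAR to GRCm39 (mm39 in the submitters' processing notes). The counting program is not given in the sources used here. The values, a signal per gene, are counts the authors divided by DESeq2 size factors before they were deposited. Each library's values were whole multiples of 1 step (to within 4.2e-09), so reads were recovered. The deposited table's fold changes, scores and p-values for the authors' own contrasts were not used. Of 24239 gene identifiers 24037 (99.2%) matched the GENCODE M39 annotation.

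In R 4.3.3, log2(normalized count + 1) of all genes was fitted in limma 3.58.1 with a mean-variance trend and 4 groups, and p-values were adjusted over all genes by Benjamini–Hochberg. A gene was called at an adjusted p under 0.1 and a change above 1.5-fold, the study's thresholds; the fold is understated for low genes. edgeR 4.0.16 and DESeq2 1.42.0 on the recovered reads, other pseudocounts, filters and scalings, covariates, subsets and left-out hearts were alternatives. The model was tested on simulated data. The 9 genes and all lists were chosen with earlier results of these data known. Pathway genes were named by the largest called changes of each list, and genes like Ccnd2 by correlation. P-values set a difference between groups against the spread between these hearts. Figures used matplotlib 3.10.9.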

Additional observations from a re-analysis of the deposited data

Results flagged for a closer look

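In 36 sets of 6 hearts (9 genes in 4 groups), 2 held a heart whose gap to its neighbour was above Dixon's limit, as a share of the range of the set on the log2 scale. Chance alone gives about 1 in 20. Cdkn1c in control Sham replicate 2 had 898 normalized counts, against 488 to 583 in the other 5 hearts of its group. Ccng1 in the library labelled cSirt5-/- TAC replicate 4 had 16338 normalized counts, against 26765 to 35735 in the other 5. The TAC response of Ccnd2 in cSirt5-/- minus control hearts was −0.83 on the log2 scale, the value by which the genes were chosen.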

How the results depend on the processing

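Ccnd2 chose the genes and was not tested. For the other 8 genes in the 4 comparisons, 1152 alternative values gave no change in the direction of a call, 5 lost calls and 2 gained ones. Lost were Cdkn1a (set 1) and Cdkn1c (set 2, number series, 2 single hearts) for TAC in control hearts, and gained were Ccnd1 in set 1 (0.77) and Ccnd3 in set 2 (0.60, after Sham). With Ccnd2 placed by the same limits, as a description only, the number of genes past them for cSirt5-/- against control after Sham was 1, all of it Ccnd2, with 0 in set 1, 2 in set 2 (Ccnd2 and Ccnd3), 0 with the number series and 0 to 1 with single hearts left out; 0 came without cSirt5-/- Sham replicates 4 or 5 or control Sham replicate 2. For the difference between responses Ccnd2 was the 1 gene past the limits, with 0 in set 1, in set 2 and with the number series, and nothing is read from it. Of the 94 pathway genes, 7 were called for TAC in control hearts, 11 with a minimum mean of 10, 12 by DESeq2, 4 in each set alone and 4 to 11 with single hearts left out. For TAC in cSirt5-/- hearts 2 were called, 1 with a pseudocount of 10, 1 with the set as a covariate, 0 by edgeR, from the compared groups only, in either set, or without the 2 libraries with Sirt5 in or above the control range, and 0 to 2 with single hearts left out. For cSirt5-/- against control after TAC the count of 1 was 0 in set 1, 5 in set 2 and 3 with the number series. After Sham the count of 5 was 0 in set 1 and with the number series, and 2 to 5 with single hearts left out. For the difference between responses DESeq2 called 1 (Cenpf), where limma called 0. The cause was not tested. In the subsets of hearts fewer hearts were compared.

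Replicate numbers recur across groups but name different mice. Deviations from group means correlated at a median of 0.03 over 36 same-numbered pairs, 10 of them above 0.1. With the number as a replicate block 2 of the 8 tested genes were called for TAC in control hearts and 0 in each of the other 3 comparisons, the counts found without it. With the untested Ccnd2 placed by the same limits the first count was 3.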
